A study of Bos taurus with 96 samples.

Results

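The genes described here are 5 that encode positive acute-phase proteins of the cow, which are plasma proteins whose concentration rises during inflammation. They are AGP (ENSBTAG00000017294, alpha-1-acid glycoprotein, also called ORM1), HP (ENSBTAG00000006354, haptoglobin), SAA1 (ENSBTAG00000022394), SAA2 (ENSBTAG00000022395) and SAA3 (ENSBTAG00000022396), the SAA genes encoding serum amyloid A proteins. The names SAA1 and SAA2 are uncertain, since the row called SAA1 here carries a RefSeq transcript whose name in RefSeq is SAA2, with SAA1 as a synonym, so the identifier and not the name fixes which gene a value belongs to. The members were chosen by identifier and are 5 of the 24616 genes counted. Biopsies came from 16 Holstein cows, 8 of high genetic merit for fertility (Fert+) and 8 of low merit (Fert-), which had similar genetic merit for milk production. Each cow gave liver (a percutaneous punch) and semitendinosus muscle in late pregnancy (LP), early lactation just after calving (EL) and mid lactation (ML), which makes 96 libraries of polyA RNA with 16 cows at each time-point of a tissue. No group was treated, and the genotypes are defined by genetic merit, not by a known allele.

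In the acute-phase response, cytokines released at a site of injury or infection, above all interleukin-6 and interleukin-1, reach the liver and switch on a set of hepatocyte genes, while other secreted liver proteins such as albumin and transthyretin decline. HP protein binds free haemoglobin, AGP carries lipophilic molecules and modulates immune cells, and SAA proteins associate with high-density lipoprotein. HP and SAA are the main acute-phase proteins of cattle, and SAA3 is known for being made outside the liver as well, in the udder among other tissues.

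Library totals ran from 14966847 to 26358063 counts. The 10 hepatocyte markers summed to between 31512 and 193256 CPM (counts scaled to 1e6 per library) in liver and to between 1.49 and 157 CPM in muscle, and the 10 skeletal muscle rows to at most 0.655 CPM in liver, so each library held the markers of its labelled tissue. Labels of time-point were checked by correlating the change of each cow with the mean change of the other 15 cows. The 500 genes that changed most consistently in those 15 were used, taken from 13771 genes in liver. The members and the genes of the acute-phase lists described below were left out. Genes in no such list that went closely with HP in liver, such as SERPINA3-6 and GPX3, were not left out. The check may therefore not be independent of the acute-phase response. In liver, from LP to EL, this correlation across genes was -0.88 for cow 426 (Fert-) and -0.43 for cow 3434 (Fert+), and it lay between 0.12 and 0.88 for the other 14. Between EL and ML it was -0.14 for cow 996 (Fert-) and between 0.61 and 0.92 for the other 15. In muscle no cow was below 0.79 in either step, though for ML against LP cows 430 and 996 were at 0.14 and 0.13. The liver of cow 426 therefore changed from LP to EL opposite to the mean of the other cows, and the livers of 3434 and 996 stood apart. In muscle the correlation of cow 426 in that step was 0.96. Whether the labels or the state of the cow differed was not tested. Liver results are given with and without these cows. No library was relabelled.

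**Figure D1:**
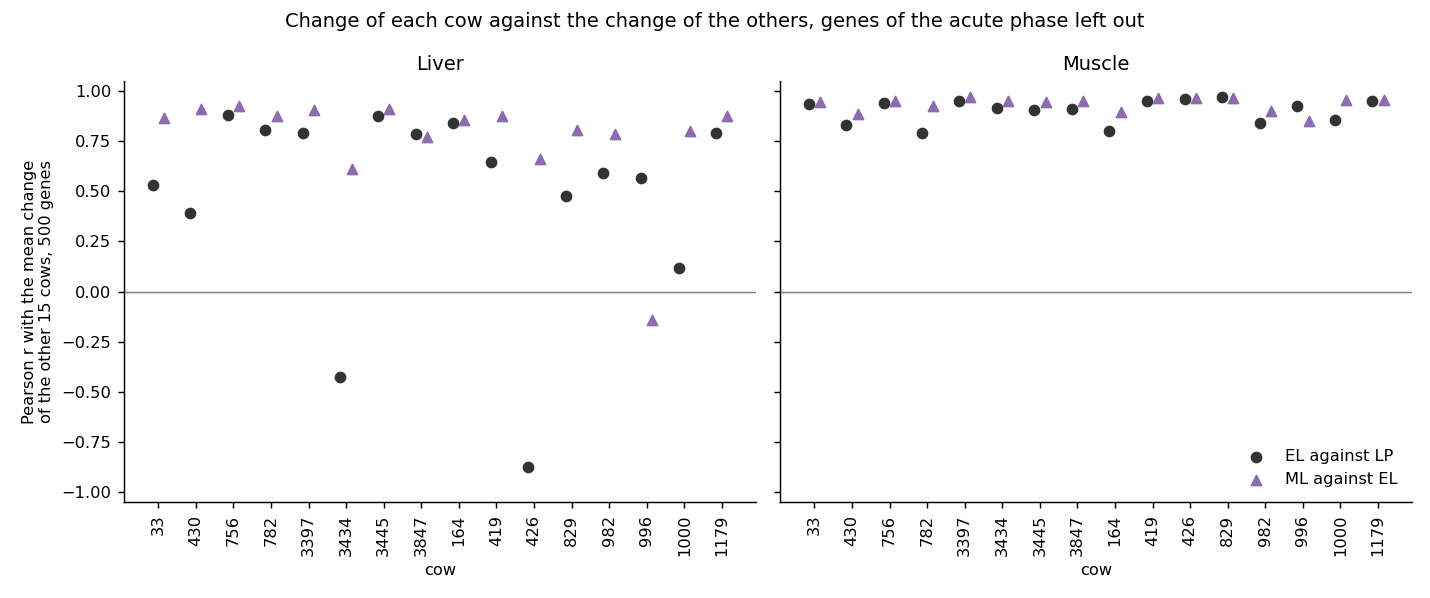
Pearson correlation, across 500 genes, between the change of 1 cow and the mean change of the other 15, by cow (Fert+ on the left, Fert- on the right of each panel), in liver and muscle, with circles for EL against LP and triangles for ML against EL. Cow 426 sits at -0.88 and cow 3434 at -0.43 for EL against LP in liver, and cow 996 at -0.14 for ML against EL.

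The first question was how the 5 genes moved around calving in liver. HP showed the widest swing. At LP its level ranged from 53.97 to 41586 CPM with a median of 596, at EL from 51.7 to 52926 with a median of 13292, and at ML from 25.1 to 26302 with a median of 432. Its range therefore overlapped between all time-points. Cow 426 had 41586 CPM at LP and 297 at EL, cow 430 had 32622 at LP and 19472 at EL, cow 3434 had 1939.5 and 51.7, and cow 996 had only 1082 at EL but 26302 at ML. In 13 of 16 cows HP was higher at EL than at LP, and in 13 of 16 it was lower at ML than at EL.

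**Figure D2:**
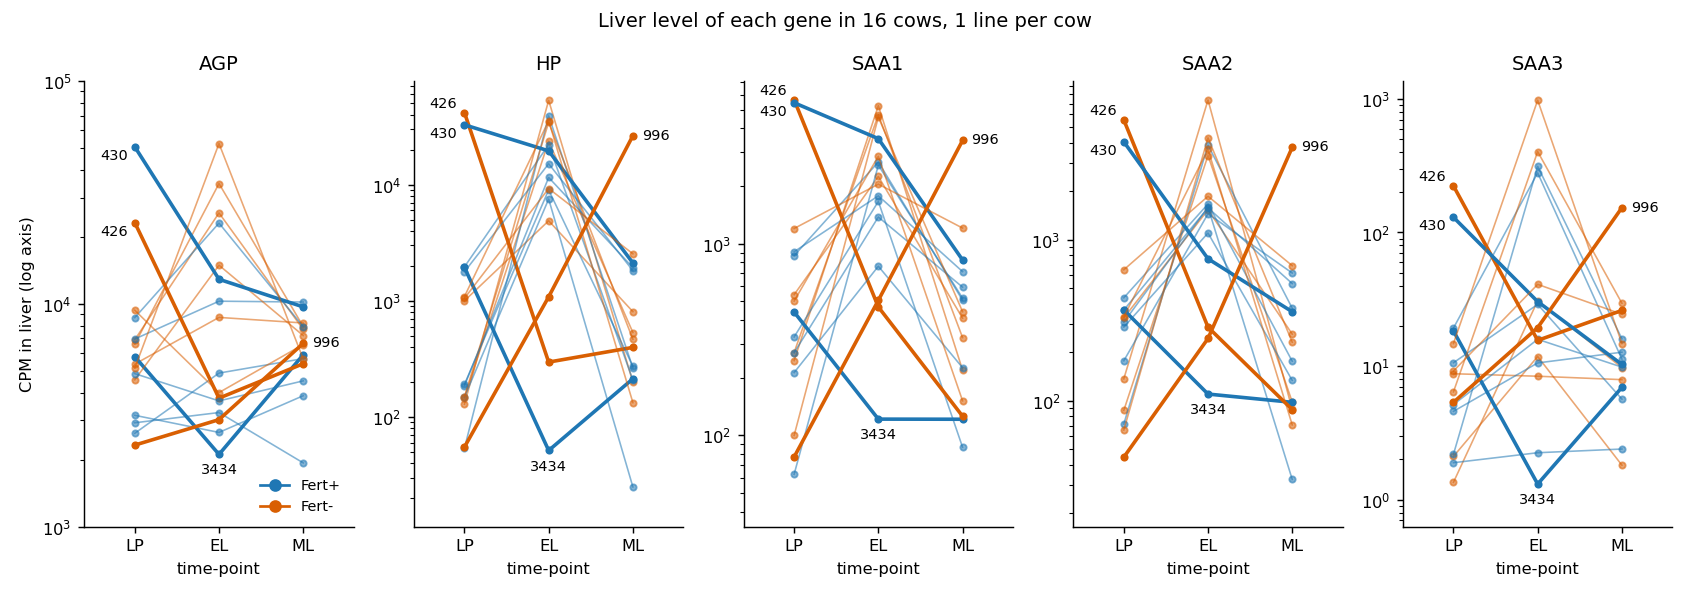
Liver level in CPM (log axis, a scale of its own per panel) of AGP, HP, SAA1, SAA2 and SAA3 at LP, EL and ML, with 1 line per cow, blue for Fert+ and orange for Fert-. Cows 426, 430, 3434 and 996 are drawn thick and numbered: 426 and 430 start high at LP, 3434 is lowest for HP at EL with 51.7 CPM, and 996 is highest at ML for HP, SAA1, SAA2 and SAA3.

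SAA1 had medians of 383 CPM at LP, 2145 at EL and 425 at ML, with ranges of 62.6 to 5642, 122 to 5258 and 86.7 to 3459. SAA2 went from a median of 317 CPM at LP to 1583 at EL and 203 at ML, with ranges of 44.5 to 5553, 110 to 7373 and 32.4 to 3748. The highest LP libraries of both were those of cows 426 and 430 and the highest ML library that of cow 996, as for HP. SAA3, at medians of 7.58, 24.2 and 10.8 CPM, ranged from 1.35 to 223 at LP, from 1.31 to 977 at EL and from 1.81 to 153 at ML. The spread of SAA3 at EL came from few cows: 982 (977 CPM), 419 (403), 3847 (313) and 3445 (279.4) stood above the other 12, whose highest value was 40.9 CPM. Cow 782 had 1.89, 2.24 and 2.39 CPM of SAA3 at the 3 time-points while its HP went from 1778 to 15086 and back to 1818 CPM.

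AGP behaved otherwise. Its median was 5586 CPM at LP, 6796 at EL and 6613 at ML, and its range was 2325 to 50710, 2112 to 52419 and 1935 to 10198 CPM. Of 16 cows, 10 had more AGP at EL than at LP and 6 had less. The top value at EL was cow 982, followed by cows 164 (34667 CPM), 1179 (25600) and 3445 (23046), and the top value at LP was cow 430. At ML the spread was narrow, 0.581 on the log2 scale (SD, n = 16) against 1.47 at EL.

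The same cows were compared between time-points with edgeR's quasi-likelihood test, fitted over all 13815 genes tested in liver with cow as a block, and genes were called at an adjusted p (Benjamini-Hochberg over all of them) under 0.05. From LP to EL, 1 of the 5 was called, in the direction of a rise, beside 1.04% of all genes called higher (144 of 13815, with 188, or 1.36%, called lower). That gene was HP, with a log2 fold change of 4.37 ± 1.21 (SE, adjusted p = 0.0487). The other log2 fold changes were 1.87 ± 0.62 for SAA1 (adjusted p = 0.0887), 2.38 ± 0.80 for SAA2 (0.0915), 1.97 ± 0.82 for SAA3 (0.164) and 0.41 ± 0.36 for AGP (0.5257). The HP call rested on every one of 12 cows, since leaving out any of 33, 164, 419, 756, 782, 829, 982, 1000, 1179, 3397, 3445 or 3847 ended it (adjusted p up to 0.120). It was also absent without the 13 libraries, described further on, that held counts for a set of 19 genes. Those 13 included an LP or EL liver library of cows 33, 419, 756 and 3847, which are among the 12, so these cows lost their LP and EL pair.

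Without cow 426, whose liver changed from LP to EL opposite to the mean of the other cows, 4 of the 5 were called higher at EL, beside 5.69% of all genes. HP then rose by 4.86 ± 1.07 on the log2 scale (adjusted p = 0.00484), SAA1 by 2.22 ± 0.55 (0.0102), SAA2 by 2.78 ± 0.72 (0.0134) and SAA3 by 2.41 ± 0.78 (0.0451), while AGP had 0.63 ± 0.34 (0.223). Without cows 426, 3434 and 996 the same 4 were called, beside 8.05% of all genes, with log2 fold changes of 5.28 for HP, 2.48 for SAA1, 3.07 for SAA2 and 2.80 for SAA3, and 0.78 for AGP (adjusted p = 0.121). These sets of cows were left out after their values had been seen.

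From EL to ML, 4 of the 5 were called lower, beside 20.3% of all genes called lower and 21.4% called higher. HP fell by 4.96 ± 1.15 on the log2 scale (adjusted p = 0.00122), SAA1 by 2.32 ± 0.60 (0.00302), SAA2 by 3.07 ± 0.78 (0.00258) and SAA3 by 1.88 ± 0.76 (0.0460), and AGP had -0.50 ± 0.34 (0.243). The calls of HP, SAA1 and SAA2 stood without any single cow, whereas that of SAA3 was lost without any of 9 cows (33, 164, 419, 829, 982, 1179, 3397, 3445 or 3847; adjusted p up to 0.105). Without cow 426 the 4 genes were called lower beside 20.0% of all genes, and without cows 426, 3434 and 996 all 5 were, AGP with a log2 fold change of -0.82 ± 0.34 (0.0487), beside 21.7% of all genes.

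**Figure D3:**
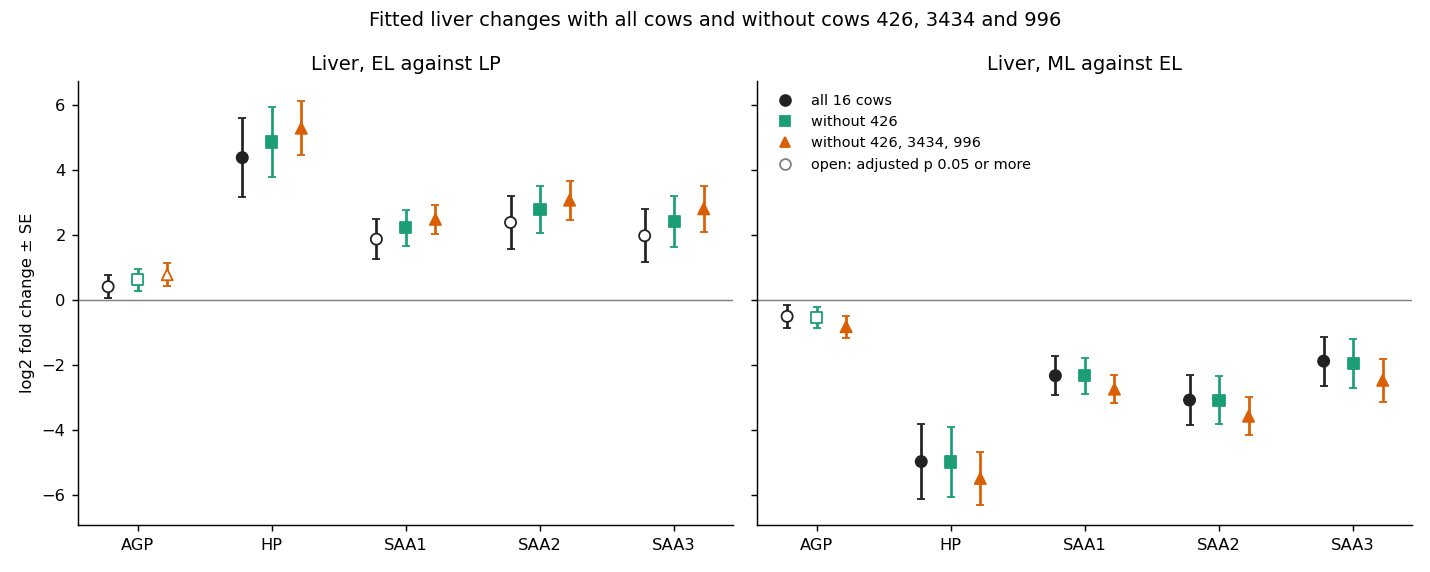
Log2 fold change with its standard error from the edgeR fit with cow as a block, for EL against LP (left) and ML against EL (right) in liver, with all 16 cows (circles), without cow 426 (squares) and without cows 426, 3434 and 996 (triangles); filled marks have an adjusted p under 0.05. HP lies farthest from 0 in every fit and AGP nearest, and SAA1, SAA2 and SAA3 are filled for EL against LP in the fits that leave out cow 426.

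Mid lactation was not separated from late pregnancy. For ML against LP none of the 5 was called, beside 8.85% of all genes called higher and 6.32% lower, and 0 of the 5 had an unadjusted p under 0.05 in this test. The log2 fold changes were -0.59 ± 1.08 for HP, -0.45 ± 0.60 for SAA1, -0.69 ± 0.76 for SAA2, 0.10 ± 0.75 for SAA3 and -0.09 ± 0.34 for AGP, so differences of about 1 standard error or less were seen on scales where a single cow could stand 771-fold above another in HP within LP. DESeq2 also called 0 of the 5.

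The exact paired permutation test on log2(CPM + 1), two-sided over all sign changes of the 16 cows and adjusted over 30 tests of 5 genes, 2 tissues and 3 pairs of time-points, was run on the same libraries. With all cows it passed SAA1 and SAA2 as well as HP from LP to EL, where the edgeR fit called HP alone, and from EL to ML it did not pass SAA3, which the edgeR fit called. The smallest p it allows is 3.05e-05. From LP to EL the mean within-cow difference was 3.66 ± 4.63 (SD, n = 16) for HP (exact paired permutation, adjusted p = 0.0297), 1.90 ± 2.45 for SAA1 (0.0297), 2.21 ± 2.95 for SAA2 (0.0307), 1.67 ± 3.06 for SAA3 (0.0928) and 0.34 ± 1.63 for AGP (0.491). Each of HP, SAA1 and SAA2 was higher at EL in 13 of 16 cows, SAA3 in 12 and AGP in 10. For ML against EL the mean difference was -3.82 ± 3.79 for HP (exact paired permutation, adjusted p = 0.0117, lower in 13 of 16 cows), -2.11 ± 1.86 for SAA1 (0.0108, lower in 15), -2.64 ± 2.56 for SAA2 (0.0108, lower in 15), -1.35 ± 2.39 for SAA3 (0.0862, lower in 11) and -0.38 ± 1.28 for AGP (0.357, lower in 9). By this permutation test HP, SAA1 and SAA2 stood at EL above both LP and ML. In the edgeR fit with all cows the rise from LP to EL was called for HP alone, and leaving out any of 12 cows ended that call. No order between LP and ML could be given, and the 3 levels of AGP did not differ beyond their spread.

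At EL these transcripts took a visible part of the liver library. The 5 genes together held between 0.240% and 8.29% of all counts at LP (median 0.725%), between 0.250% and 8.36% at EL (median 2.64%) and between 0.223% and 3.196% at ML (median 0.844%). The highest shares were those of cows 982 (8.36%) and 164 (8.04%) at EL and of cows 430 (8.29%) and 426 (6.34%) at LP. AGP formed the largest piece at LP with a median of 0.560%, and HP at EL with 1.51%. SAA3 never exceeded 0.0858%.

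**Figure D4:**
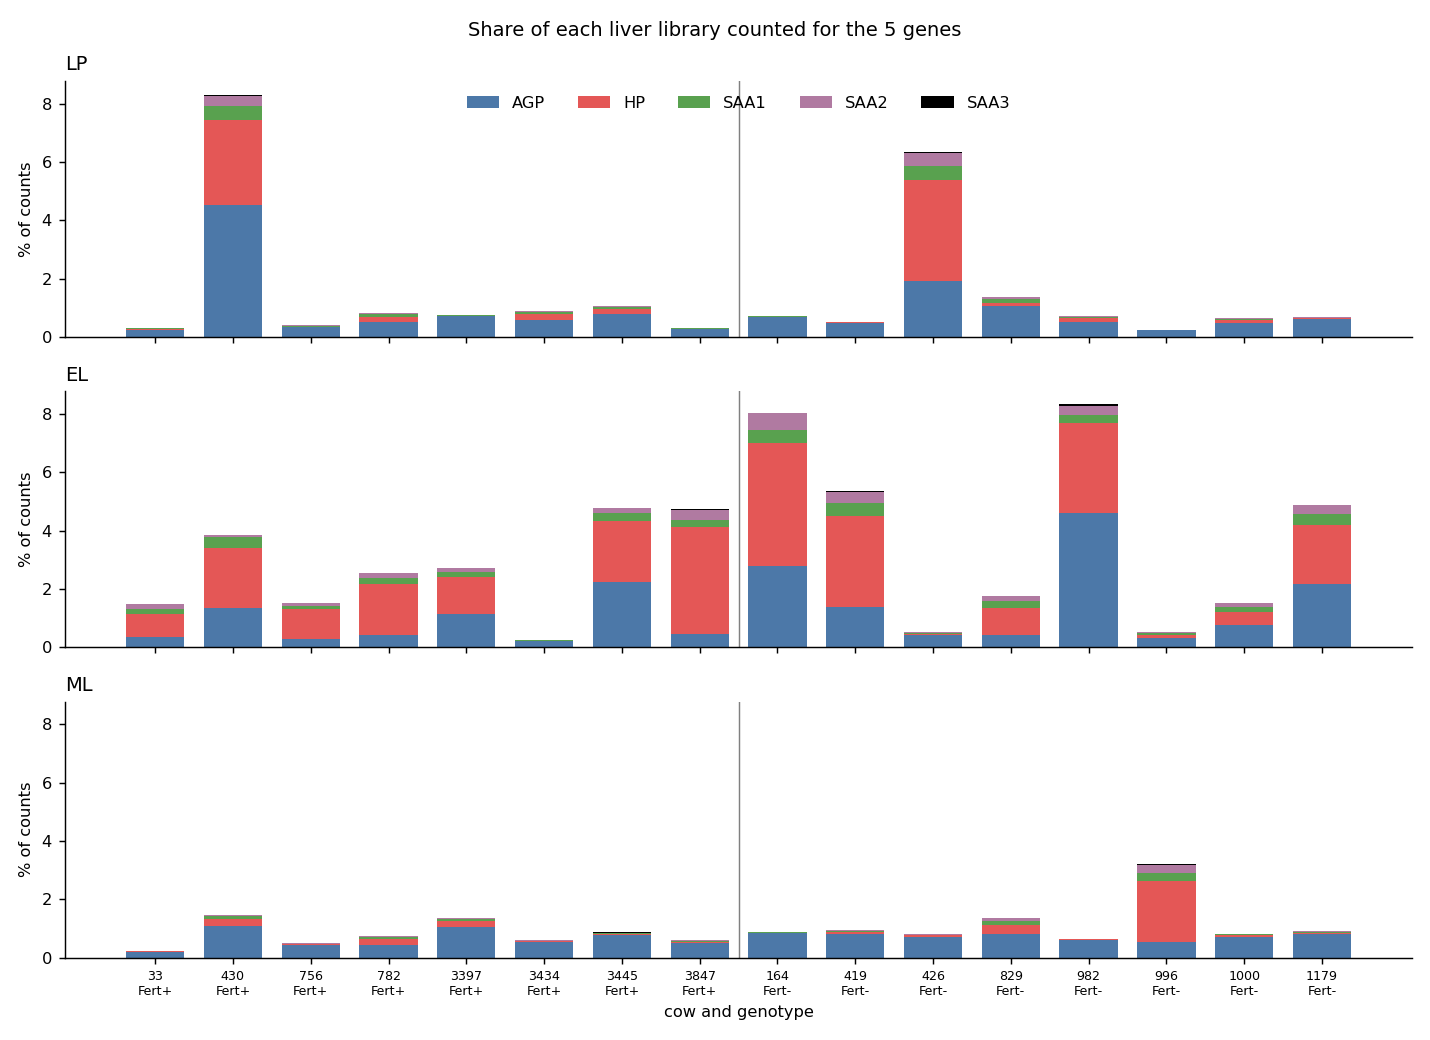
Percent of all counts of each liver library that fell on AGP, HP, SAA1, SAA2 and SAA3, stacked, with 1 bar per cow (Fert+ left of the line, Fert- right) and a panel per time-point. At EL the median is 2.64%, cows 430 and 426 are high at LP (8.29% and 6.34%), and cow 996 holds 3.196% at ML.

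The 10 hepatocyte markers were summed in the same liver libraries. Their sum had a median of 132391 CPM at LP, 82932 at EL and 125378 at ML, and it was lower at EL than at LP in 14 of 16 cows and higher at ML than at EL in 12, although the ranges of the time-points overlapped. ALB, TTR and APOA2 stand in this list and in that of the negative acute-phase genes below, so the counts of these lists are not separate observations. Without these 3 the sum of the other 7 had medians of 25237, 21310 and 26102 CPM and was lower at EL than at LP in 13 of 16 cows. In the liver libraries of cow 426 the sum of all 10 was 67121 CPM at LP and 126801 at EL. The 5 neutrophil markers had medians of 19.4, 28.5 and 40.4 CPM at the 3 time-points with a maximum of 332 at EL, and the 3 macrophage markers medians of 559, 445 and 667. The part of these values in the results was not tested. In bulk tissue, fewer cells of a type and less RNA per cell cannot be told apart.

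Other genes of the response were followed in lists. Of 26 other positive acute-phase genes tested in liver, none was called from LP to EL with all cows, and 10 were called higher and 0 lower without cow 426, beside 5.69% of all genes called higher and 4.81% lower, with a median log2 fold change of 0.56 against 0.01 for all genes. By size these were M-SAA3.2 (a serum amyloid A gene next to the members, 2.27), LBP (which binds bacterial lipopolysaccharide, 1.72), ITIH4 (1.60), HAMP (hepcidin, the regulator of iron export, 1.52), SERPINA3 (a protease inhibitor, 1.20) and SAA4 (1.15), and the remaining 4 were the fibrinogen chain genes FGA, FGG and FGB, at 0.86 to 0.91, and CP, ceruloplasmin, at 0.68. From EL to ML, 13 of the 26 were called lower with all cows and 1, the complement gene C3, higher, beside 20.3% of all genes called lower and 21.4% higher (median -0.70 against 0.00 for all genes). Named after their values were seen, the 6 called genes with the largest falls were MT1A (metallothionein, -3.39), LBP (-2.66), ITIH4 (-1.95), A2M (-1.57), HAMP (-1.24) and SERPINA3 (-1.23), and SAA4 was also called (-1.14, adjusted p = 0.00258), whereas M-SAA3.2, at -1.25, was not (adjusted p = 0.0915).

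Negative acute-phase genes are those whose products decline in the response. Of 11 tested, 4 were called lower and none higher from LP to EL with all cows, beside 1.36% of all genes called lower: TTR (transthyretin, -0.94), AHSG (fetuin-A, -0.67), TF (transferrin, -0.57) and APOA2 (-0.52). APOA1, the main protein of high-density lipoprotein, had 0.65 (adjusted p = 0.113). Without cow 426, 7 were called lower and 1, APOA1, higher (0.81), beside 4.81% of all genes lower and 5.69% higher. At ML against EL, 5 were called higher, beside 21.4% of all genes, among them CYP7A1 (bile acid synthesis, 1.75), TTR (0.90) and ALB (albumin, 0.68), and APOA1 was called lower (-1.47). Without cow 426, 8 were called higher and 1 lower in that step, beside 20.7% of all genes called higher. Of 29 signalling genes 3 could be matched by name and 2 of these, SOCS3 and IL1B, were tested in liver. SOCS3, the feedback inhibitor of interleukin-6 signalling, had a median of 3.65 CPM at LP, 7.81 at EL and 3.26 at ML, and it was called lower from EL to ML (-1.42 ± 0.44, adjusted p = 0.0116) and, without cow 426, higher from LP to EL (1.49 ± 0.45, adjusted p = 0.0316), whereas IL1B, the interleukin-1 beta gene, had 0.37 ± 0.19 from EL to ML (adjusted p = 0.121).

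The members were then compared with each other across the 16 cows at each time-point on log2(CPM + 1), in 30 pairs with permutation p (100000 draws) adjusted over the 30. HP, SAA1 and SAA2 formed the tightest group, with Pearson r from 0.89 to 0.96 and Spearman rho from 0.80 to 0.94 at all 3 time-points (permutation, adjusted p at most 6.67e-05 for r). With the 2 cows farthest from the median left out, these r were 0.77 to 0.91. AGP and HP had r = 0.85 and rho = 0.66 at LP (permutation, adjusted p = 4.00e-04 and 0.0112) and r = 0.65 and rho = 0.79 at EL (permutation, adjusted p = 0.00678 and 0.00109), but r = 0.52 and rho = 0.39 at ML (permutation, adjusted p = 0.0588 and 0.170). For SAA3 with AGP at LP r was 0.75 with all cows and 0.21 without 2 cows, so that relation rested on these. No member was related between one time-point and another in liver (15 tests per coefficient, r from -0.38 to 0.50, permutation, adjusted p at least 0.234 by either coefficient), so a cow high at EL was not shown to be high at LP or ML.

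Other named genes that went most closely with each member were found over the 48 liver libraries after removing each time-point's mean, as a description. These libraries share cows, and only 1881 of the 13815 genes had a known name. Next to the other members, HP went with SERPINA3-6 (r = 0.87), GPX3 (0.87) and ITIH4 (0.85), SAA2 with SERPINA3-6 (0.89), ITIH4 (0.87) and SERPINA3-1 (0.86), and SAA1 with SERPINA3-1 (0.85), SERPINA3-6 and GPX3 (both 0.84). AGP went with ORAI2 (0.80), a calcium channel subunit, FGL1 (0.79), NNAT (0.71) and PLA1A (0.70). The highest for SAA3 were SERPINA3-6 (0.65), S100A12 (0.65, a neutrophil calcium-binding protein), HP (0.64), SAA2 (0.64) and GPX3 (0.64).

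SAA1, SAA2 and SAA3 belong to a family of similar genes, and whether read pairs of one were counted in the row of another was not tested, so the split between these rows is uncertain. The ratio of SAA2 to SAA1 counts in liver had a median of 0.657 at LP, 0.907 at EL and 0.582 at ML, and ranged from 0.215 to 1.502 at EL. It was higher at EL than at LP in 13 of 16 cows and lower at ML than at EL in 13 of 16. Extremes were cow 430 at EL, with 0.215, and cow 3847 at EL, with 1.502. The ratio of SAA3 to SAA1 counts was lower and wider, from 0.00126 to 0.342 at EL. With the 3 rows summed before the edgeR fit, the log2 fold change was 2.12 ± 0.69 from LP to EL (adjusted p = 0.0832), -2.65 ± 0.67 from EL to ML (adjusted p = 0.00232) and -0.53 ± 0.66 for ML against LP (adjusted p = 0.631).

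A further question was whether Fert+ and Fert- cows differed. In liver none of the 5 was called at LP, EL or ML, beside 0% of all genes (0 of 12872, 13047 and 13235). Of all genes, 842, 1530 and 1640 had an unadjusted p under 0.05, and DESeq2 called none of the 5. The largest difference was that of HP at ML, -2.20 ± 1.19 (log2, Fert+ against Fert-, adjusted p = 0.463). Its ML values ran from 25.1 to 2115 CPM with a median of 269 in Fert+ and from 133 to 26302 with a median of 500 in Fert-, and the groups overlapped. Cow 996 decided the sign: without it the difference was 0.24 for HP, 0.13 for SAA1 and 0.41 for SAA2, against -2.20, -0.82 and -1.18 with it. SAA3 at ML had -1.82 ± 0.68 (adjusted p = 0.324), all 8 Fert+ cows lay below the Fert- median of 19.6 CPM, and the log2 difference was -0.60 ± 0.52 without cows 426, 3434 and 996 (adjusted p = 0.655).

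At EL the differences were -1.23 ± 0.65 for AGP (adjusted p = 0.453), -0.39 ± 0.89 for HP, -0.65 ± 0.56 for SAA1, -0.90 ± 0.64 for SAA2 and -1.15 ± 1.18 for SAA3, where leaving out cow 982 turned SAA3 to 0.16. AGP ran from 2112 to 23046 CPM in Fert+ with a median of 4283 and from 3025 to 52419 in Fert- with a median of 11807, and 6 of the 8 Fert+ cows were below that Fert- median. At LP the differences lay between -0.51 and 0.43, and without cow 426 HP turned from -0.24 to 3.23 and SAA1, SAA2 and SAA3 from between -0.51 and -0.02 to between 1.35 and 1.82, while without cow 430 AGP turned from 0.43 to -0.66. By exact permutation of the 16 cows on log2(CPM + 1), no one of 30 genotype differences and no one of 30 genotype differences in a within-cow change passed the adjustment (smallest adjusted p 0.885 and 0.902).

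An exact test that gives all genes a single dispersion, the kind of test the study's methods name, called AGP, SAA2 and SAA3 at EL and HP, SAA1, SAA2 and SAA3 at ML, in each case lower in Fert+. Of all genes it called 301 of 13047 at EL (127 lower in Fert+) and 279 of 13235 at ML (189 lower). That test takes the same dispersion for every gene. The log2 SD among 8 cows at ML was 2.19 in Fert+ and 2.41 in Fert- for HP, and 0.789 and 0.222 for AGP. Why its calls differ from those of the quasi-likelihood test was not tested. The study named these genes from the same libraries, so such calls are not independent evidence of a direction. The genotype by time-point test called none of the 5 in liver, beside 0% of all genes (0 of 13815, with 1067 at an unadjusted p under 0.05), with adjusted p from 0.752 to 0.923.

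In muscle the 5 genes were scarce. Together they had at most 0.00476% of a library, and SAA1 and SAA2, with 0 counts in 13 of 16 libraries each at LP and 10 of 16 at EL, did not pass the filter on low counts, so 3 of the 5 were tested. HP had a median of 3 counts at LP, 19 at EL and 4 at ML, with ranges of 0 to 14, 3 to 124 and 1 to 472. The highest EL libraries were those of cows 3847 (124), 982 (71) and 164 (54), and 14 of 16 cows had more HP in CPM at EL than at LP. AGP went from medians of 0 counts at LP and EL to 12.5 at ML, where cows 996 (162), 1179 (142) and 33 (140) were highest. SAA3 had medians of 4, 4 and 1, with a single EL library at 276 (cow 3847) and the next at 42 (cow 419).

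In the edgeR fit over 12675 genes, muscle HP was the 1 member called from LP to EL, higher by 2.55 ± 0.62 (log2, adjusted p = 8.27e-04), beside 29.9% of all genes called higher and 27.5% lower. From EL to ML AGP was called higher (3.26 ± 0.66, adjusted p = 7.84e-05), beside 31.5% of all genes, and SAA3 (-2.76 ± 0.70, 0.00110) and HP (-1.33 ± 0.58, 0.0469) were called lower, beside 31.5% as well. The HP call at ML against EL was lost in 12 of the 16 fits that left out 1 cow (adjusted p up to 0.128), and without cows 426, 3434 and 996 HP fell by 2.06 ± 0.44 on the log2 scale (adjusted p = 2.44e-04). For ML against LP AGP was called higher (4.76 ± 0.78, adjusted p = 1.76e-04), beside 4.16% of all genes called higher and 4.82% lower, and HP (1.22 ± 0.73, 0.317) and SAA3 (-1.89 ± 0.76, 0.118) were not called. By exact paired permutation HP from LP to EL had a mean of 0.79 ± 0.71 on log2(CPM + 1) (SD, n = 16, adjusted p = 0.00824), and AGP at ML against LP had 1.18 ± 1.31 (adjusted p = 0.0108). At ML against EL the permutation passed AGP (adjusted p = 0.0307) and SAA3 (0.0415) but not HP (0.346). At ML against LP it passed SAA3 (adjusted p = 0.0220), which the edgeR fit did not call. SAA1, which edgeR did not test, passed at ML against EL (adjusted p = 0.0417) and ML against LP (0.0122), with 0 counts in most LP and EL libraries.

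**Figure D5:**
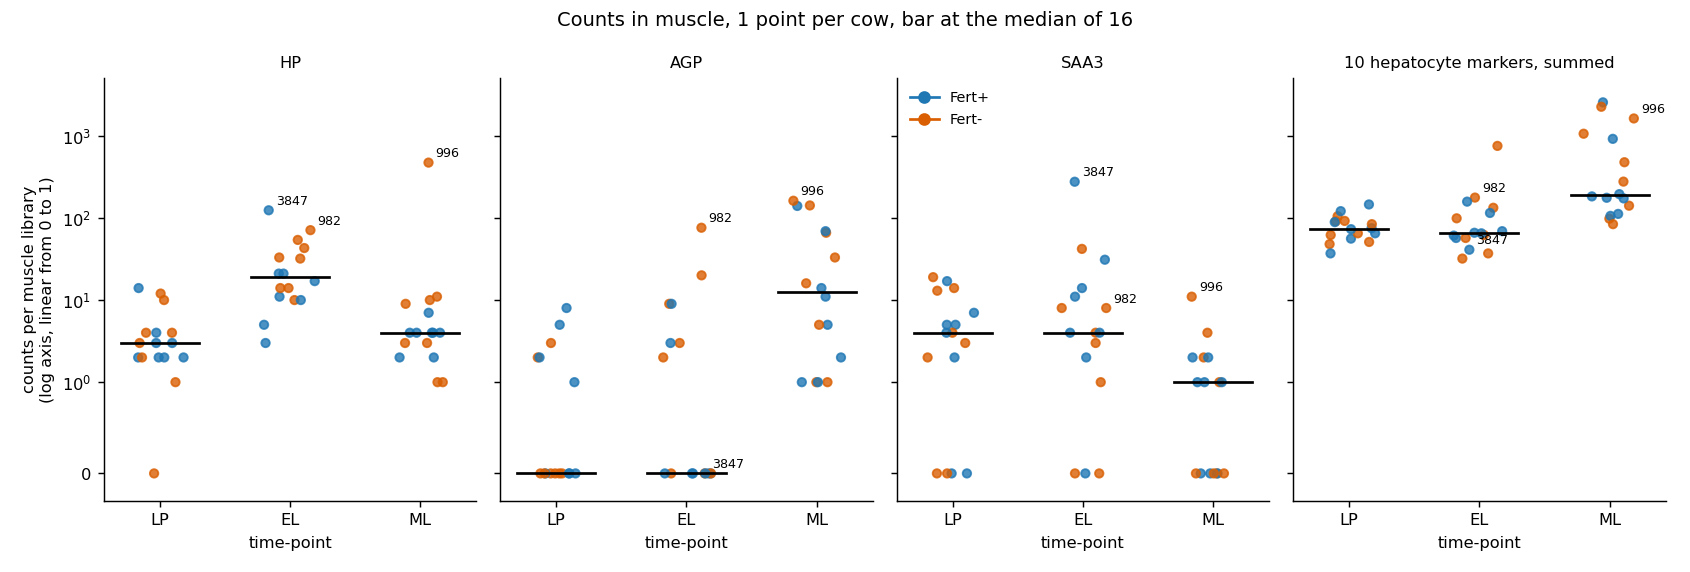
Counts per muscle library (log axis, linear between 0 and 1) of HP, AGP, SAA3 and the sum of 10 hepatocyte markers at LP, EL and ML, with 1 point per cow, blue for Fert+ and orange for Fert-, and a bar at the median. HP is highest in most cows at EL (median 19), AGP and the hepatocyte sum at ML (medians 12.5 and 189), and cow 996 has 472 HP counts at ML.

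Hepatocyte markers were counted in the same muscle libraries. Their sum had a median of 74 counts at LP, 65.5 at EL and 189 at ML, with a highest value of 146, 754 and 2557 and 4 to 10 of the 10 markers detected, and the ML libraries with most, of cows 33 (2557), 1179 (2259), 996 (1628), 1000 (1061) and 3445 (919), were the 5 with most AGP. Across the 16 cows at ML, AGP and this sum had r = 0.98 and rho = 0.94 on log2(CPM + 1) (permutation, adjusted p = 1.50e-04 and 7.50e-05 over 15 tests), and r was 0.98 without the 2 cows farthest from the median. By both coefficients the sum was also related to AGP at LP (r = 0.72), SAA1 at ML (r = 0.71) and SAA2 at EL (r = 0.81) and ML (r = 0.56), with permutation adjusted p at most 0.0173. AGP at EL and HP at ML passed by rho alone and SAA1 at EL by r alone, and SAA3 passed at no time-point. HP at EL was not related to the sum in that way (r = -0.33, rho = -0.42, permutation, adjusted p = 0.243 and 0.161), and cow 3847 had 41 hepatocyte counts beside 124 of HP and 276 of SAA3. However, HP per 1000 hepatocyte counts in liver at EL differed between cows, from 0.399 (cow 3434) to 1680 (cow 164). Scaled by each cow's liver ratio, the hepatocyte counts in muscle at EL correspond to 369 HP counts in all, against 483 counted. The same scaling gave 3.68 against 408 for SAA3 at EL and 478 against 669 for AGP at ML. The part of hepatocyte RNA in the muscle values of the 5 genes was not tested. Skeletal muscle markers also fell at EL, from a median of 199548 to 61326 CPM, and returned to 227761 at ML.

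Between genotypes in muscle, HP could be tested only at EL (-0.19 ± 0.58, adjusted p = 0.935) and AGP only at ML (-0.75 ± 1.03, adjusted p = 0.899), and neither was called, beside 0.00831% of all genes at EL and 0% at ML and at LP, where no member was tested. That single-dispersion exact test called AGP at ML, lower in Fert+, beside 214 of 12001 genes called (152 lower). The genotype by time-point test called none of the 3 tested, beside 0% of all genes, with adjusted p of 0.562 for SAA3, 0.651 for AGP and 0.860 for HP. Levels in liver and muscle of the same cow were related for 1 of 15 gene and time-point pairs by r, that of SAA3 at ML (r = 0.82, permutation, adjusted p = 0.00570), with rho = 0.66 (permutation, adjusted p = 0.0831) and r = 0.57 without 2 cows.

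A group of 13 of the 96 libraries, 8 in liver and 5 in muscle, held at least 50 counts for 11 to 17 of a set of 19 genes, and the other 83 did so for at most 3 of them. No label names a batch, and why these 13 differ was not tested. In liver these were 2 of 16 libraries at LP, 3 at EL and 3 at ML. HP at EL had a median of 34265 CPM in those 3 libraries and 11497 in the other 13, and at LP 170 in those 2 and 1026 in the other 14. Without the 13 libraries, 0 of the 5 were called in liver from LP to EL and only HP from EL to ML, where it was lower (adjusted p = 0.0337), beside 0% of all genes for EL against LP and 14.6% called lower for ML against EL. At LP both of these liver libraries were from Fert+ cows, and at EL and ML 2 were from Fert+ cows and 1 from a Fert- cow; 1624 genes had an unadjusted p under 0.05 for EL against LP without them, against 2927 with them. A fit of the time-points with this split as a term was not run.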

How the data were processed

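PolyA RNA of 48 liver and 48 semitendinosus muscle biopsies was sequenced from TruSeq libraries. Reads had been trimmed (Trimmomatic), mapped to the UMD3.1 cow genome (STAR) and, if properly paired, assigned to Ensembl genes (featureCounts) by the authors, and the deposited values used are whole-number counts per gene and library, not normalized. The deposited whole-series tables hold 96 columns of per-sample values without a sample name, which were not used. Per the paper's methods, reads kept were primary alignments, and a pair was counted where it fell on 1 gene. How strand was handled is not given in the sources used here.

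Groups and cow numbers came from the labels, and no 2 libraries of a group agreed within sampling noise. Genes were filtered with filterByExpr, scaled by TMM and tested with the robust quasi-likelihood test of edgeR 4.0.16 in R 4.3.3, by tissue, with cow as a block for time-points and by time-point for genotype. Adjusted p (Benjamini-Hochberg, 0.05) covers all genes tested. CPM are counts scaled to a fixed library total after TMM. Single values were tested by two-sided exact permutation on log2(CPM + 1), and correlations with 100000 permutations. Same-numbered libraries are from the same cow. Their deviations from the mean of their genotype at each time-point correlated by over 0.1 in 11, 15 and 13 of 16 cows in liver and 12, 16 and 14 of 16 in muscle (LP with EL, EL with ML, LP with ML). The fits were tested on simulated data. Alternatives were DESeq2 1.42.0, RLE size factors, no gene filter, no robust estimation, no block, one fit per tissue for genotype, edgeR's exact test at 1 common dispersion, 13 libraries with counts in a set of 19 genes left out and each cow left out. Leaving out cows 426, 3434 and 996 was chosen after seeing the data. The members and lists were chosen with earlier results of these data known. Named genes are the 5 members, up to 6 called genes of each list with the largest change from LP to EL, SAA4 and M-SAA3.2, and the 5 named genes closest to each member. With none of the positive list called with all cows, its 6 were taken from the fit without cow 426, and every other list gene in the text was named after its values were seen. Gene names were those that the study's supplement pairs with gene identifiers (2160 genes with a name). Promoter and protein sequences were not analysed here.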

Additional observations from a re-analysis of the deposited data

Results flagged for a closer look

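In groups of 8 cows, 20 of 60 gene, tissue, time-point and genotype groups held a cow whose gap to the next, over the range on the log2 scale, exceeded Dixon's 95% critical value. Chance gives about 1 in 20 for values without ties, and this rate does not hold in groups with cows tied at 0 counts: 10 of the 20 came from the 23 groups with a cow at 0, 2 of them with 7 of 8 cows at 0, and 10 from the other 37. Of the 20, 7 were in liver. Cow 3434 was lowest among Fert+ cows at EL for HP (51.7 CPM, next 7497), SAA1 (122 CPM, next 763) and SAA2 (110 CPM, next 761). At LP, cow 430 was highest among Fert+ cows for AGP (50710 CPM, next 8676) and SAA2 (4060 CPM, next 435), and cow 426 was highest among Fert- cows for HP (41586 CPM, next 1088) and SAA3 (223 CPM, next 14.7).

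The other 13 were in muscle, and 4 of them were cow 996 at ML: HP (27.0 CPM, 472 counts), SAA1 (4.75 CPM, 83 counts), SAA2 (5.27 CPM, 92 counts) and SAA3 (0.630 CPM, 11 counts). At EL, cow 3847 was highest among Fert+ cows for HP (5.85 CPM) and SAA3 (13.025 CPM), cow 3445 for AGP (0.403 CPM, 9 counts), and among Fert- cows cow 982 for AGP (3.1999 CPM) and cow 419 for SAA3 (1.96 CPM). At LP, cow 430 was highest for HP (0.799 CPM, 14 counts), and cow 996 had the only count of SAA1 and of SAA2 among Fert- cows (1 count and 0.0603 CPM each), so these groups would exceed the value with any count at all. Cow 33 was highest for SAA2 at ML among Fert+ cows (0.674 CPM, 11 counts).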

How the results depend on the processing

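From LP to EL in liver, 1 member was called with all cows, 0 with no replicate block, with no gene filter or without the 13 libraries that hold counts for a set of 19 genes, 4 without cow 426, without 426 and 3434, without 426, 3434 and 996 and by DESeq2, and 0 to 4 when 1 cow was left out. Of all genes, in either direction, 332 of 13815 were called with all cows, 369 with no replicate block and 193 of 19976 with no gene filter. Those called were 0 of 13773 without the 13 libraries, 1451 of 13825 without cow 426 and 1826 of 13813 without 426 and 3434. Without the 3 cows it was 2104 of 13873, and by DESeq2 887 of 19976. From EL to ML 4 were called, 1 without the 13 libraries and 3 to 4 with 1 cow out. Of all genes, 5749 of 13815 were called with all cows and 4088 of 13773 without the 13 libraries. The exact test with one common dispersion called 3 members by genotype in liver at EL, 4 at ML and 1 in muscle at ML, where the quasi-likelihood test called 0. That exact test called 301 of 13047, 279 of 13235 and 214 of 12001 genes there. In muscle from LP to EL 1 was called, 2 without the 3 cows and 1 to 2 with 1 cow out. Genes called there were 7271 of 12675 with all cows and 6532 of 12778 without the 3 cows. For ML against LP 1 was called, 2 with no replicate block, 3 with no gene filter, 2 by DESeq2 and 1 to 2 with 1 cow out. Genes called there were 1138 of 12675 with all cows, 773 with no replicate block, 1126 of 19523 with no gene filter and 1367 of 19523 by DESeq2. For ML against EL 2 to 3 were called with 1 cow out, where 7981 of 12675 genes were called with all cows. The causes were not tested.

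Signs turned (log2) for ML against LP in liver, where nothing was called: AGP 0.087 without 426, 0.10 without 426 and 3434 and -0.22 to 0.093 with 1 cow out; HP 0.26 and SAA1 0.10 without 426 and 3434; SAA3 -0.68 with no replicate block and -0.25 to 0.47 with 1 cow out. For HP in muscle at ML against EL the fit with no replicate block gave 0.026. For genotype at LP, HP had 0.19 without the 13 libraries, 3.23 without 426, 3.35 without 426 and 3434, 3.15 without the 3 cows, 0.67 by DESeq2 and -2.66 to 3.23 with 1 cow out. SAA1 had 0.32, 1.35, 1.46, 1.28, 0.060 and -1.28 to 1.35 in that order, and SAA2 0.026, 1.69, 1.797, 1.61, 0.25 and -1.64 to 1.69. SAA3 had 1.82, 1.87 and 1.82 without 1, 2 and 3 cows, 0.32 by DESeq2 and -1.93 to 1.82 with 1 cow out, and AGP -0.64 by DESeq2 and -0.66 to 0.90. At EL SAA3 had -1.84 to 0.16 with 1 cow out. At ML HP had 0.28 without the 3 cows, 0.26 by DESeq2 and -2.54 to 0.24 with 1 cow out, SAA1 0.12 and -1.001 to 0.13, and SAA2 0.41, 0.41 by DESeq2 and -1.42 to 0.41. In muscle HP at EL had -1.19 to 0.059. RLE size factors, no robust estimation and one fit per tissue changed no call of a member. Among all genes, one fit per tissue called 362 of 13815 by genotype in liver at EL and 564 of 12675 in muscle at EL. The main fits called 0 of 13047 and 1 of 12035 there. At LP and EL muscle SAA1 and SAA2 had at most 7 counts and did not pass the filter. Muscle AGP had a median of 0 counts at both, and from LP to EL it was not called with all cows (adjusted p = 0.177) but was called without cow 430 (2.23, adjusted p = 0.0484).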
